A study of Bos grunniens with 18 samples.

Results

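Natural killer (NK) cells and cytotoxic T lymphocytes kill infected or altered cells by releasing granules that hold a pore-forming protein, perforin, and serine proteases, the granzymes. Surface receptors such as NKG2D and NKp46 set off this release, T-box transcription factors keep the program running, and interferon gamma is the main cytokine the cells secrete. In blood these cells are a small part of the leukocytes, and in pregnancy NK cells are best known from the uterus.

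The genes described here were chosen by name: the granule genes *GZMA*, *GZMB*, *PRF1* and *NKG7*, the receptor genes *NCR1* and *KLRK1*, the T-box factor genes *TBX21* and *EOMES*, and the cytokine gene *IFNG*. Of these 9 names, 8 were each carried by 1 of the 20607 genes in the deposited table, and no gene used here carried the name *GZMB*. All 8 passed the filter on low counts, together with 14500 other genes, and the text below calls them the 8 genes.

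Whole blood of yaks (*Bos grunniens*) was sequenced in 3 stages, anestrus (the Y-A group), estrus (the Y-E group) and pregnancy (the Y-P group), with 6 libraries in each. The animals were adult females of 4 to 8 years from 1 breeding herd, and no genotype or breed was used here. The study's methods describe 6 cows whose blood was followed through the stages. Estrus was synchronized with a progesterone pessary, cloprostenol and GnRH before artificial insemination. The stage of gestation is not given in the sources used here. The labels number the libraries 1 to 6 within a stage but do not say that a number marks a cow.

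Total counts ranged from 30247267 to 48401076 per library, where 3 counts, the upper limit that a count of 0 allows, correspond to 0.0604 to 0.107 CPM, counts scaled to a common library total. Markers of the main blood cell types were present in every library, the lowest of which held summed levels of 965 CPM for T cells, 527 CPM for B cells, 2640 CPM for neutrophils, 314 CPM for monocytes and 89.9 CPM for platelets. The 6 hemoglobin genes took 3.1% to 16.7% of the counts in the Y-A group and 0.0272% to 0.376% in the Y-P group. In the Y-E group they took 0.0899% to 0.713% in 5 libraries and 8.36% in replicate 6. Y-E replicate 6 also had the lowest Y-E level for 4 of the 8 genes (*PRF1*, *NKG7*, *TBX21* and *IFNG*) and the lowest of all 18 libraries for 3 of them, so results are given with and without it where they change.

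The 8 genes lie on 6 chromosomes, at the positions that the deposited table gives, and none overlaps another gene of that table. *GZMA* (ENSBGRG00000021322) lies at chr23:60377414-60385660 on the plus strand and *PRF1* (ENSBGRG00000022450) at chr27:26566816-26572417 on the minus strand. *NKG7* (ENSBGRG00000013619, chr20:57573221-57575872, plus strand) and *NCR1* (ENSBGRG00000016456, chr20:52093314-52097460, minus strand) share a chromosome. *KLRK1* (ENSBGRG00000020814, chr5:2348129-2358559, minus strand) shares one with *IFNG* (ENSBGRG00000020571, chr5:60510443-60514575, minus strand). The T-box genes lie at chr19:27847714-27862105 (*TBX21*, ENSBGRG00000019171) and chr22:65659532-65666418 (*EOMES*, ENSBGRG00000009291), both on the plus strand.

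The 8 genes covered a wide range of levels, with the granule genes *NKG7* and *PRF1* at the top and the cytokine gene at the bottom. Between genes, levels were compared as FPKM, which is scaled by length. *NKG7*, whose product is a membrane protein of cytotoxic granules, stood highest, at 52.2 ± 10.1 FPKM in the Y-A group, 49.0 ± 15.7 in the Y-E group and 62.4 ± 14.5 in the Y-P group (SD, n = 6 each, as for all groups below). *PRF1*, the gene of perforin, came next at 39.8 ± 10.9, 38.1 ± 14.1 and 50.8 ± 9.93 FPKM, and lay below *NKG7* in 5 of 6 Y-A libraries and in 6 of 6 libraries of the Y-E and Y-P groups. *KLRK1*, *GZMA* and *TBX21* followed and changed places from library to library. *KLRK1* exceeded *TBX21* in 3 of 6 Y-E libraries and in 6 of 6 Y-P libraries, and *GZMA* exceeded *TBX21* in 3 of 6 Y-A libraries. In the Y-P group *PRF1* exceeded *KLRK1* in only 3 of 6 libraries, so those neighbours did not differ beyond their spread. *NCR1* (8.35 ± 3.93, 9.10 ± 5.53 and 8.47 ± 5.69 FPKM) and *EOMES* (4.89 ± 1.32, 3.69 ± 1.56 and 4.23 ± 0.521 FPKM) were lower. *IFNG* was lowest in all 18 libraries, at 0.528 ± 0.210, 0.739 ± 0.542 and 1.45 ± 0.918 FPKM.

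Across the stages, 1 of the 8 genes passed the test: *KLRK1*, which encodes the activating receptor NKG2D of NK cells, CD8 T cells and gamma delta T cells, was higher in pregnancy than in estrus. In that comparison 14.4% of all tested genes passed, so 1 of 8 is close to the share of all genes. Levels within a gene are given below as CPM after TMM scaling, differences as log2 fold changes from the edgeR quasi-likelihood test over all 18 libraries, and a gene passed at an adjusted p under 0.05. The CPM of *KLRK1* ran from 25.7 to 46.1 in the Y-P group (median 34.4), from 17.6 to 24.3 in the Y-E group (median 20.4) and from 14.2 to 34.3 in the Y-A group (median 25). Every Y-P library thus lay above every Y-E library, while the Y-A libraries spread over the ranges of both other groups. The Y-P and Y-E ranges did not overlap, in either direction, for 6.03% of all tested genes. The log2 fold change for Y-P vs. Y-E, pregnancy against estrus, was 0.70 (SE 0.20, adjusted p = 0.0233), which is 1.63-fold, and the Y-P library was the higher in 6 of 6 pairs with the same number. Without Y-E replicate 6 it was 0.68 (adjusted p = 0.0416), and under a block for the number 0.69 (adjusted p = 0.0237). *KLRK1* did not pass without Y-P replicate 4, which had the highest level (log2 fold change 0.60, adjusted p = 0.0596), or under the block without Y-E replicate 6 (0.61, adjusted p = 0.0597).

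*KLRK1* was also higher in the Y-P than in the Y-A library in 6 of 6 numbers, but that difference did not pass the test (log2 fold change 0.48, SE 0.20, edgeR adjusted p = 0.154). It passed with limma on log2(FPKM + 1), at a log2 fold change of 0.70 (adjusted p = 0.0301). For Y-E vs. Y-A the log2 fold change was −0.23 (SE 0.20, adjusted p = 0.999), and the Y-E values stayed within a highest-to-lowest ratio of 1.39, against 2.42 in the Y-A group and 1.79 in the Y-P group.

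**Figure D1:**
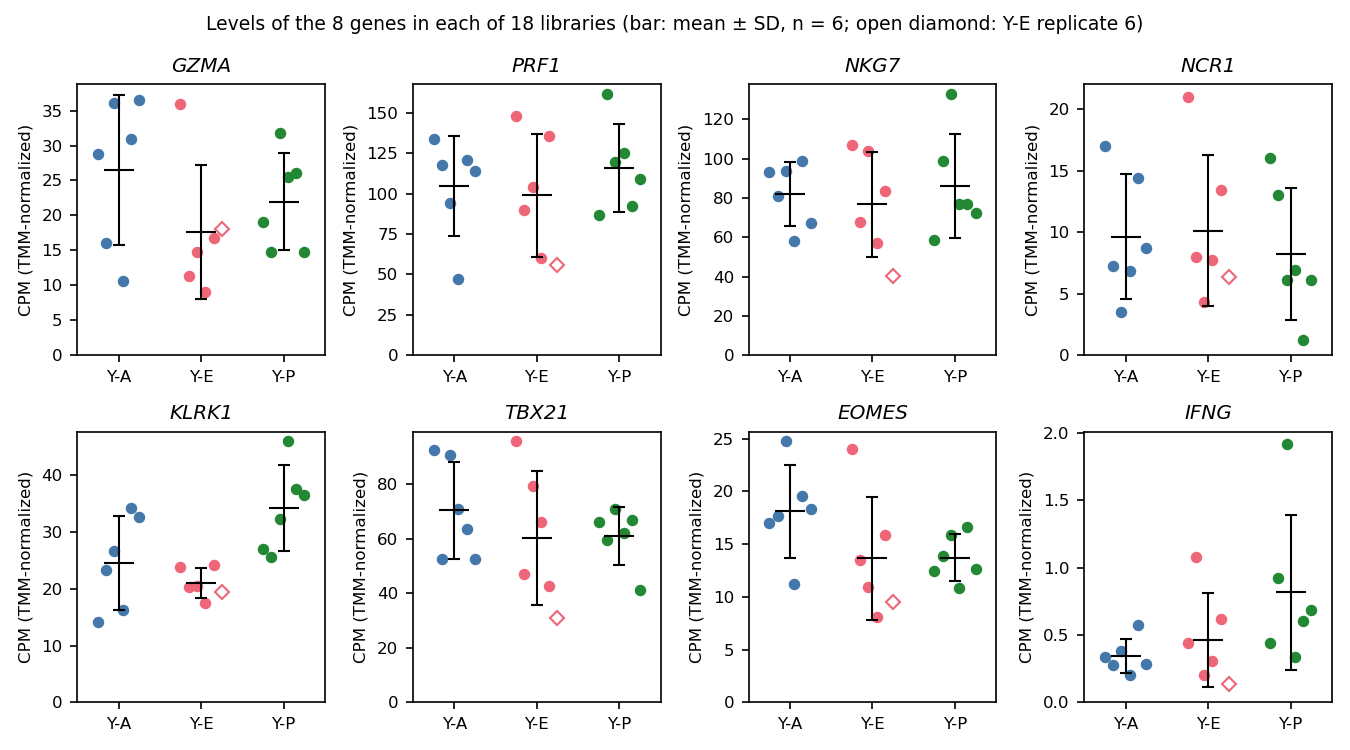
Each panel shows the CPM (vertical axis, TMM-normalized, from 0) of 1 gene in the 6 libraries of each stage; points are libraries in order of their number, bars are the mean ± SD, and the open diamond is Y-E replicate 6. The *KLRK1* points of the Y-P group (25.7 to 46.1) all lie above those of the Y-E group (17.6 to 24.3), whereas the stages overlap in the other 7 panels.

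Markers of other cells moved between the same stages. Of 11 T cell marker names, 7 had a gene in the table, and their summed level was 965 to 1200 CPM in the Y-A group, 983 to 1240 CPM in the Y-E group and 1120 to 1920 CPM in the Y-P group, with none of the 7 near 0. For Y-P vs. Y-E 3 of the 7 were higher and none lower at an adjusted p under 0.05 (2 and none without Y-E replicate 6), with a median log2 fold change of 0.42. *CD3G*, a subunit of the T cell receptor complex, had a log2 fold change of 0.88 (SE 0.16, edgeR adjusted p = 0.00173), which was larger than that of *KLRK1*. For Y-P vs. Y-A 2 of the 7 were higher (4 with the block), with a median log2 fold change of 0.43, namely *CD3G* (0.73, adjusted p = 0.0139) and *CD5* (0.51, adjusted p = 0.0198). Of 3 gamma delta T cell markers none passed for Y-P vs. Y-E (median log2 fold change 0.41), with summed levels of 233 to 360 CPM in the Y-E group and 275 to 496 CPM in the Y-P group. Neutrophil markers went the other way. Of the 5 measured, 4 were lower for Y-P vs. Y-E (5 without Y-E replicate 6), with a median log2 fold change of −1.48 and summed levels of 4690 to 12400 CPM against 2640 to 5940 CPM. Their part in the *KLRK1* result was not tested. In whole blood, more cells of a type and more RNA per cell cannot be told apart.

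The 7 T cell genes were *CD4*, *LCK*, *CD28*, *CD5*, *CD6*, *CD3G* and *CD3D*, so *CD8A* and *CD8B* were not part of the reference. Set against the mean log2 CPM of these 7, *KLRK1* stood at a log2 difference of −2.42 ± 0.48 in the Y-A group, −2.60 ± 0.13 in the Y-E group and −2.31 ± 0.40 in the Y-P group. On this scale the Y-P libraries (−2.87 to −1.71) overlapped the Y-E libraries (−2.75 to −2.37). For *EOMES* the same log2 difference was −2.82 ± 0.34, −3.31 ± 0.47 and −3.61 ± 0.19, and the Y-A libraries (−3.33 to −2.31) lay above all Y-P libraries (−3.79 to −3.36). The T cell mean itself was 6.97 ± 0.14, 6.98 ± 0.11 and 7.38 ± 0.27. From the Y-A to the Y-P group the mean difference also fell for *GZMA* (−2.37 to −2.98), *TBX21* (−0.87 to −1.47) and *NCR1* (−3.88 to −4.7). The same held for *NKG7* (−0.64 to −1.0) and *PRF1* (−0.33 to −0.55), whereas *IFNG* rose (−8.46 to −7.84), as did *KLRK1*. These ratios are descriptions and were not tested, and the share of all genes with such a separation is not given here.

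None of the granule genes passed the test between stages. *PRF1* ranged from 47.5 to 134 CPM in the Y-A group (median 116), from 56.1 to 148 CPM in the Y-E group (median 97.2) and from 87.0 to 162 CPM in the Y-P group (median 115). The stages overlapped over most of their ranges, and the log2 fold changes were −0.08 (SE 0.25) for Y-E vs. Y-A, 0.15 (SE 0.25) for Y-P vs. Y-A and 0.23 (SE 0.25) for Y-P vs. Y-E, with edgeR adjusted p of 0.999, 0.780 and 0.606. *NKG7* lay at 57.9 to 98.7 CPM (median 87.0), 40.2 to 107 CPM (median 75.7) and 58.6 to 133 CPM (median 77.1) in the Y-A, in the Y-E and in the Y-P group. Its log2 fold changes, −0.09 (SE 0.23), 0.07 (SE 0.23) and 0.17 (SE 0.23) in the same order of comparisons, were smaller than their errors. Without Y-E replicate 6 the Y-E vs. Y-A values of *PRF1* and *NKG7* both turned to 0.04, so neither has a direction there.

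*GZMA* encodes granzyme A, a protease of these granules that cuts after basic residues. Its CPM was 10.6 to 36.5 in the Y-A group (median 29.9), 9.0 to 36.0 in the Y-E group (median 15.7) and 14.7 to 31.8 in the Y-P group (median 22.2). The Y-E library was the higher of the pair with the Y-A library in 1 of 6 numbers, and the Y-E vs. Y-A log2 fold change was −0.59 (SE 0.33, edgeR adjusted p = 0.888). Replicate 1, at 36.0 CPM, was the only Y-E library above 18 CPM, whereas 4 of the 6 Y-A libraries were. The log2 fold changes were −0.27 (SE 0.33, adjusted p = 0.679) for Y-P vs. Y-A and 0.32 (SE 0.33, adjusted p = 0.571) for Y-P vs. Y-E.

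For granzyme B, the protease that cleaves caspases in the target cell, the table has no gene of that name among those used here, but 5 unnamed genes carry its enzyme number. They were looked up after the values of the 8 genes were known. The 5 lie together at chr17:36946585-37087392, and 2 of them (ENSBGRG00000005455 and ENSBGRG00000005616) overlap, so reads may be split between neighbouring copies and each value is uncertain. ENSBGRG00000005455 was the highest of them, at 82.2 to 190 CPM in the Y-A group, 43.1 to 156 CPM in the Y-E group and 67.5 to 278 CPM in the Y-P group, and none of its comparisons passed the test (edgeR adjusted p of 0.999, 0.605 and 0.329). ENSBGRG00000005275 ran from 10.1 to 43.2 CPM in the Y-A group (median 16.4), from 11.4 to 38.2 CPM in the Y-E group (median 27.0) and from 21.2 to 55.7 CPM in the Y-P group (median 35.8). Y-A replicate 4 alone, at 43.2 CPM, reached far into the Y-P range, as the next Y-A library was at 20.7 CPM. The Y-P vs. Y-A log2 fold change of ENSBGRG00000005275 was 0.82 (SE 0.33, adjusted p = 0.150). It passed with the replicate number as a block (0.89, adjusted p = 0.0314) and without Y-A replicate 4 (1.19, adjusted p = 0.0334). The other 3 had means of at most 6.34 CPM in any group. An unnamed neighbour of *GZMA* with the enzyme number of granzyme A (ENSBGRG00000021299) reached at most 0.98 CPM.

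*NCR1*, which encodes the NK cell receptor NKp46, had the widest range of the 8 genes over the 18 libraries, with a highest-to-lowest ratio of 16.6. It ranged from 3.54 to 17 CPM in the Y-A group (median 7.97), from 4.30 to 21.0 CPM in the Y-E group (median 7.84) and from 1.27 to 16.0 CPM in the Y-P group (median 6.50). The 3 medians lay within the spread of any stage, and the log2 fold changes were 0.07 (SE 0.48), −0.23 (SE 0.48) and −0.30 (SE 0.48) for Y-E vs. Y-A, for Y-P vs. Y-A and for Y-P vs. Y-E, with edgeR adjusted p of 0.999, 0.825 and 0.733. The size of these errors sets what could be seen.

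*TBX21*, the gene of T-bet, ranged from 52.4 to 92.4 CPM in the Y-A group (median 67.1), from 31.1 to 95.9 CPM in the Y-E group (median 56.6) and from 41.0 to 70.9 CPM in the Y-P group (median 64.2). Its log2 fold changes were −0.22, −0.20 and 0.02 (SE 0.23 each) for Y-E vs. Y-A, for Y-P vs. Y-A and for Y-P vs. Y-E, and the last was −0.11 without Y-E replicate 6. *EOMES*, the gene of eomesodermin, lay at 11.2 to 24.8 CPM in the Y-A group (median 18), 8.09 to 24.0 CPM in the Y-E group (median 12.2) and 10.8 to 16.6 CPM in the Y-P group (median 13.3). The Y-P library had the lower *EOMES* level in 6 of 6 numbers when set beside the Y-A library, but neither the Y-P vs. Y-A log2 fold change (−0.40, SE 0.23, edgeR adjusted p = 0.309) nor the Y-E vs. Y-A one (−0.41, SE 0.23, adjusted p = 0.881) passed the test.

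*IFNG* was detected at 6 to 85 counts per library, above the floor of 3 counts in every one. It lay at 0.202 to 0.572 CPM in the Y-A group (median 0.310), 0.138 to 1.08 CPM in the Y-E group (median 0.374) and 0.341 to 1.92 CPM in the Y-P group (median 0.646). The Y-P library was the higher in 6 of 6 numbers when set beside the Y-A library, and the highest value belonged to Y-P replicate 3. The Y-P vs. Y-A log2 fold change was 1.25 (SE 0.54, edgeR adjusted p = 0.172), the largest among the 8 genes, and did not pass the test. It ran from 0.80 to 1.45 when 1 library was left out, lowest without Y-P replicate 3. It passed with limma on log2(FPKM + 1), a scale without TMM that understates changes of low genes (log2 fold change 0.62, adjusted p = 0.0471). With edgeR scaled by library size alone, also without TMM, it was 1.39 (adjusted p = 0.104). For Y-P vs. Y-E the log2 fold change with TMM was 0.82 (SE 0.53, edgeR adjusted p = 0.329) and ran from 0.37, again without Y-P replicate 3, to 1.26. For Y-E vs. Y-A it was 0.43 (SE 0.54, adjusted p = 0.999).

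**Figure D2:**
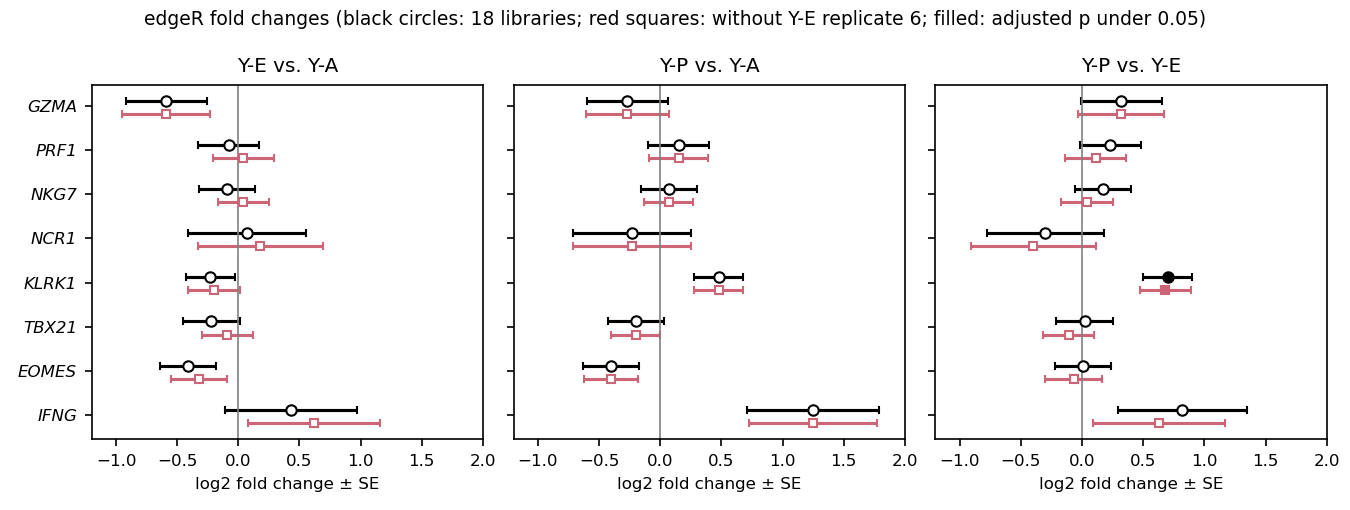
The panels show the log2 fold change ± SE (horizontal axis) of the 8 genes (rows) in the 3 comparisons, over 18 libraries (black circles) and without Y-E replicate 6 (red squares); filled symbols passed the edgeR test at an adjusted p under 0.05. The filled symbols are those of *KLRK1* for Y-P vs. Y-E (0.70 and 0.68), and *IFNG* has the widest errors.

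In all, 0 of the 8 genes passed the edgeR test for Y-E vs. Y-A, where 0.0207% of all 14508 tested genes did (0% higher and 0.0207% lower). For Y-P vs. Y-A 0 of 8 passed, against 5.83% of all genes (2.22% higher and 3.61% lower). The count was 1 of 8 for Y-P vs. Y-E, against 14.4% of all genes (5.77% higher and 8.68% lower). At that background, 1 of 8 is close to the share of all genes and is no result about the group. At an unadjusted p under 0.05 the counts were 0, 2 and 1 of the 8 with edgeR, against 6.2%, 22.7% and 29.3% of all tested genes, and 0, 2 and 1 with DESeq2, and the adjusted counts with DESeq2 were 0, 0 and 1. With a log2 fold change of 1 or more in either direction required as well, none of the 8 was called in any comparison, against 0.0138%, 1.43% and 2.67% of all genes. The libraries of the compared stages did not overlap for 0, 0 and 1 of the 8, against 0.303%, 3.56% and 6.03% of all genes. Without Y-E replicate 6 the adjusted counts were 0, 0 and 1, beside a background of 0.157%, 6.06% and 13.7% of 14653 tested genes, and under the block they were also 0, 0 and 1, beside 0.0965%, 8.84% and 18%.

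The median log2 fold change of the 8 genes was −0.16, −0.07 and 0.20 for Y-E vs. Y-A, for Y-P vs. Y-A and for Y-P vs. Y-E, beside −0.01, 0.03 and 0.04 for all tested genes. Without Y-E replicate 6 it was −0.03, −0.06 and 0.07. The comparisons share their libraries pairwise, so these medians are not independent. When libraries were scaled by their totals alone, the median of all genes moved to 0.19 for Y-P vs. Y-A and 0.18 for Y-P vs. Y-E, and *KLRK1* in the latter stood at 0.85.

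The total variation of log2 CPM over the 18 libraries was divided between stage, number and the rest, a description chosen after the values were seen, in which the number has 6 classes and the stage 3, so that the number takes the larger share in the median gene too (32.3% against 18%). *TBX21*, with 73.2% for the number and 8.08% for the stage, and *NKG7*, with 55.2% and 4.33%, had the largest shares for the number among the 8. *EOMES* (43.2% and 22.3%), *NCR1* (43.1% and 4.93%), *GZMA* (41.4% and 15.6%) and *PRF1* (34.5% and 6.48%) lay closer to the median gene. For *KLRK1* the stage took more than the number (43.2% and 20%), while *IFNG* was split about evenly (26.9% for the number and 27.3% for the stage). The likeness of libraries with the same number held for some pairs of stages and not for others. Over the 6 numbers, Pearson's r of *TBX21* was 0.92 between the Y-A and Y-E groups, 0.69 between Y-A and Y-P and 0.75 between Y-E and Y-P. For *NCR1* it was 0.94, −0.12 and 0.04 in the same order, for *GZMA* 0.65, 0.05 and −0.18, and for *PRF1* 0.60, −0.32 and −0.49, so these 3 had no such likeness with pregnancy.

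In single libraries of *NCR1*, replicate 1 was the highest in each stage, at 17 CPM in the Y-A group, 21.0 in the Y-E group and 16.0 in the Y-P group, and replicate 3 was the lowest in the Y-A and Y-E groups, at 3.54 and 4.30 CPM. Replicate 5 held 14.4 CPM in the Y-A and 13.4 CPM in the Y-E library but 1.27 CPM (63 counts) in the Y-P library, the lowest of all 18. Replicate 2 went from 7.26 and 7.95 CPM to 13.0 CPM. The *NCR1* libraries thus kept nearly the same order from anestrus to estrus, and replicates 2 and 5 left it in pregnancy. *TBX21* showed a like ordering in these stages, with replicate 1 at 92.4 and 95.9 CPM and replicate 6 at 52.4 and 31.1 CPM. In the Y-P group replicate 6 was again the lowest, at 41.0 CPM.

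**Figure D3:**
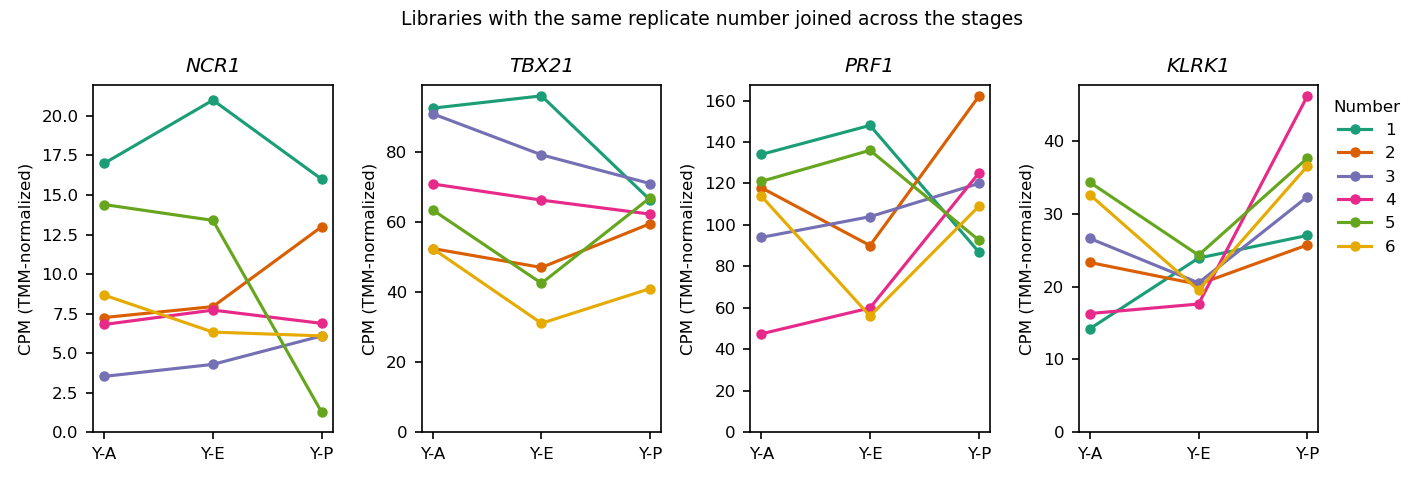
Lines join the libraries with the same number (colours, 1 to 6) across the 3 stages, with the CPM of *NCR1*, *TBX21*, *PRF1* and *KLRK1* on vertical axes that start at 0. The *NCR1* and *TBX21* lines keep nearly the same order from Y-A to Y-E, the *NCR1* line of number 5 drops to 1.27 CPM in Y-P, and the *KLRK1* lines all rise from Y-E to Y-P.

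The 8 genes were only loosely alike over the libraries. Among their 28 pairs, Pearson's r of log2 CPM over 18 libraries, which share cows, depth and the mix of blood cells, ran from −0.28 to 0.76 with a median of 0.36, and 26 pairs lay above 0. The most alike were *PRF1* and *NKG7* (r = 0.76), both granule genes, and *GZMA* and *EOMES* (r = 0.75). The least alike were *NCR1* and *KLRK1* (r = −0.28), the receptor genes. Without Y-E replicate 6 the median was 0.31. *KLRK1* had its highest r with *GZMA* (0.46), *PRF1* (0.40) and *IFNG* (0.39), then with *EOMES* and *NKG7* (0.24 each) and *TBX21* (−0.13).

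**Figure D4:**
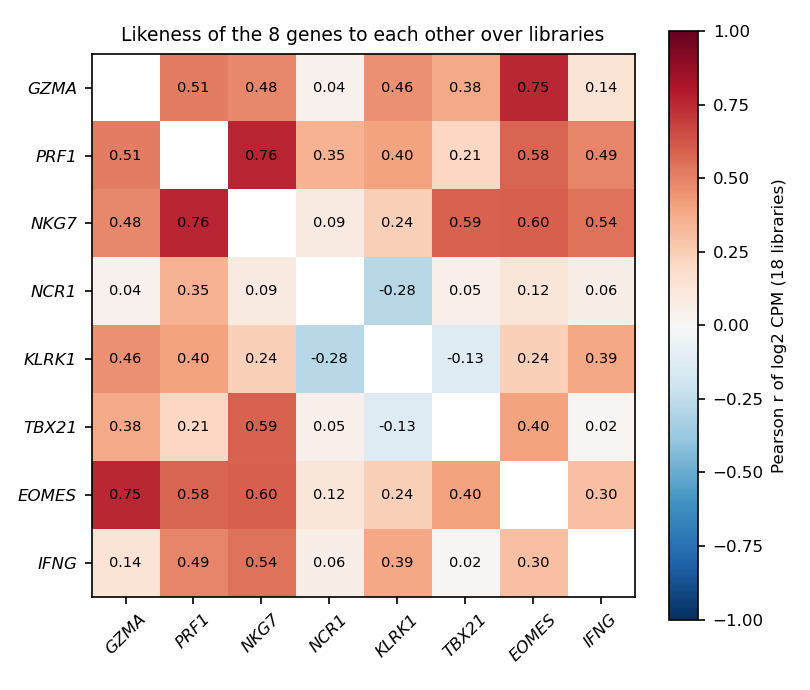
The grid gives Pearson's r of log2 CPM over 18 libraries for each pair of the 8 genes (red above 0, blue below 0, with the value in each cell). *PRF1* with *NKG7* (0.76) and *GZMA* with *EOMES* (0.75) are the darkest cells, and *NCR1* is near 0 with most of the others.

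Other genes whose pattern was most like that of the 8 genes were sought by the mean of r with all 8. This mean had a median of −0.01 over 14500 genes and reached 0.53 for *C1QTNF6*. *ME3*, the gene of a mitochondrial malic enzyme, *HOPX*, a homeobox gene, and *ABI3* followed at 0.50 each, then the unnamed ENSBGRG00000004722 and *GRID1* at 0.48. The last of the 8 nearest were unnamed genes at 0.47 that lie on either side of *KLRK1*: ENSBGRG00000020563 (chr5:2201355-2221538) and ENSBGRG00000020923 (chr5:2409137-2431574), both of which the table annotates to NK cell cytotoxicity. Only 2 of these 8 were among the first 8 without Y-E replicate 6, and 5 of 8 with Spearman's rho, so the order is loose.

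The wider pathway was followed in lists of 127 further names, of which 82 were tested, and in the 133 tested genes that the table annotates to NK cell cytotoxicity besides the 8. Granule contents other than the 8 did not pass in any comparison (0 of 6 tested). *GZMM*, a further granzyme gene, had a log2 fold change of 0.61 for Y-P vs. Y-E (SE 0.26, edgeR adjusted p = 0.126), *CST7*, which encodes an inhibitor of granule proteases, one of 0.56 (SE 0.21, adjusted p = 0.0734) and *GZMK* one of 0.46 (SE 0.36, adjusted p = 0.438). The other 3 had values below 0 there, at −0.22 for *SRGN* (adjusted p = 0.356), −0.17 for *LAMP1* (0.477) and −0.13 for *CTSC* (0.528). The death ligands (0 of 5) and the chemokine and homing genes (0 of 5) did not pass either, but with the block *LTB*, a lymphotoxin gene (0.43, adjusted p = 0.0273), and *CXCR3*, a chemokine receptor gene (0.56, adjusted p = 0.0365), passed as higher for Y-P vs. Y-A. Of 6 granule release genes the lower *STX11*, a syntaxin needed for granule fusion, passed for Y-P vs. Y-E (log2 fold change −0.64, adjusted p = 0.0199), and with the block *LYST*, a gene of lysosome trafficking, passed too (−0.48, adjusted p = 0.0386). Of 10 tested genes of upstream cytokines and receptors, 0 were higher and 1 lower for Y-P vs. Y-E, namely *IL18RAP* (−0.90, adjusted p = 0.0166). For Y-P vs. Y-A none of them passed, but with the block *IL18RAP* passed as lower (−0.65, adjusted p = 0.0157) and *IL2RA* as higher (0.38, adjusted p = 0.0375). None of 6 names of NKG2D ligands was carried by a gene used here.

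Among receptors, 13 were tested, and *CRTAM*, a receptor of activated NK and CD8 T cells, was higher in pregnancy. It lay at 21.5 ± 5.89 CPM in the Y-P group, 12.1 ± 2.26 CPM in the Y-E group and 13.2 ± 2.45 CPM in the Y-A group. The log2 fold change was 0.83 for Y-P vs. Y-E (SE 0.18, edgeR adjusted p = 0.0049) and 0.71 for Y-P vs. Y-A (SE 0.18, adjusted p = 0.0279), and its Y-P libraries did not overlap those of the Y-A group. The latter difference did not pass without Y-A replicate 1 (adjusted p = 0.0627), Y-A replicate 2 (0.0531) or Y-P replicate 5 (0.0634). *SLAMF6* (log2 fold change −0.56, adjusted p = 0.0182) and *ITGAL*, a subunit of the integrin LFA-1 (−0.52, adjusted p = 0.0139), were lower for Y-P vs. Y-E.

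Of 15 adaptor and signaling genes, 5 were higher and 3 lower for Y-P vs. Y-E, where 5.77% and 8.68% of all genes were. The lower ones were *SYK* (log2 fold change −0.36, edgeR adjusted p = 0.0466), *LCP2* (−0.34, adjusted p = 0.0457) and *VAV1* (−0.37, adjusted p = 0.0149). *ZAP70*, the kinase that binds the phosphorylated zeta chain, was higher there (log2 fold change 0.45, SE 0.12, edgeR adjusted p = 0.015). Outside the 15, the annotated pathway gene ENSBGRG00000006979, which the table describes as CD247, the zeta chain itself, was higher too (0.65, SE 0.16, adjusted p = 0.0115). For Y-P vs. Y-A 3 of the 15 were higher and 0 lower (3 and 1 with the block), where 2.22% and 3.61% of all genes were. The higher ones were *PRKCQ* (0.48, adjusted p = 0.0303), whose libraries did not overlap, *ZAP70* (0.46, adjusted p = 0.0285) and *LAT*, an adaptor of T and NK cells (0.54, adjusted p = 0.0303). The lower one with the block was *SH2D1B* (−0.79, adjusted p = 0.0313), which with the block was also lower for Y-P vs. Y-E (−0.76, adjusted p = 0.0192). *ZAP70* and *LAT* each did not pass in 6 of the 18 fits for Y-P vs. Y-A that left out 1 library. For *ZAP70* these were Y-A replicates 1, 4 and 5 and Y-P replicates 2, 4 and 5, with an adjusted p of at most 0.0602. For *LAT* these were Y-A replicates 1, 4 and 6 and Y-P replicates 2, 4 and 5, with an adjusted p of at most 0.0713. The unnamed ENSBGRG00000014994, annotated to the pathway, was also higher for Y-P vs. Y-A (0.73, SE 0.16, adjusted p = 0.0166). *ZAP70* and *LAT* are also used by T cells, whose markers, *CD3G* among them, moved as given above.

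The lower genes of the wider pathway were led by *ZEB2*, a zinc finger factor of maturing NK and effector T cells that is also expressed in myeloid cells. It lay at 198 ± 48.2 CPM in the Y-P group, 379 ± 51.8 CPM in the Y-E group and 427 ± 68.3 CPM in the Y-A group. All Y-P libraries lay below all others, with log2 fold changes of −0.93 (SE 0.15, edgeR adjusted p = 0.000931) for Y-P vs. Y-E and −1.10 (SE 0.15, adjusted p = 0.00108) for Y-P vs. Y-A. Of the 12 transcription factor genes tested, 2 were higher and 2 lower for Y-P vs. Y-E, where 5.77% and 8.68% of all genes were. The higher ones were *STAT4* (log2 fold change 0.60, adjusted p = 0.0257) and *ETS1* (0.33, adjusted p = 0.0353). *NFIL3* was the other lower one (−0.75, adjusted p = 0.0307), and the counts were 1 and 3 without Y-E replicate 6. For Y-P vs. Y-A 0 were higher and 2 lower (2 and 2 with the block). The receptor subunit genes *IFNGR2* (log2 fold change −0.79, SE 0.15, adjusted p = 0.00199), for interferon gamma, and *IFNAR1* (−1.10, SE 0.21, adjusted p = 0.00212), for type I interferon, were lower for Y-P vs. Y-E without overlap of the libraries, as was *PIK3CD*, a catalytic subunit of the lipid kinase PI3K (−0.85, SE 0.16, adjusted p = 0.00194). In the same comparison *IFNGR1* (−0.58, adjusted p = 0.00981) and *IRF1*, a factor induced by interferon gamma (−0.61, adjusted p = 0.0393), were lower too, and the other 7 of the 10 tested receptor and target genes of interferon gamma did not pass. For Y-P vs. Y-A none of the 10 passed. With the block *IDO1* passed there as higher (0.98, adjusted p = 0.021) and *IFNGR1* as lower (−0.46, adjusted p = 0.0472). Neutrophil markers were lower for Y-P vs. Y-E, as given above. Of 3 monocyte markers 1 was lower for Y-P vs. Y-E (2 with the block), with a median log2 fold change of −0.51, at −0.79 for *CD68* (adjusted p = 0.0144) and −0.51 for *CSF1R* (adjusted p = 0.0733), and their summed level was 423 to 803 CPM in the Y-E group and 314 to 582 CPM in the Y-P group. The part of these cells in the result was not tested.

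For Y-P vs. Y-A *BHLHE40* (log2 fold change −0.50, edgeR adjusted p = 0.0468) and *PIK3R3* (−1.15, adjusted p = 0.0367) passed as lower. They did not pass in 11 and 9 of the 18 fits that left out 1 library, with an adjusted p of at most 0.104 and 0.083. *FCGRT*, which encodes the neonatal Fc receptor, a carrier of immunoglobulin G rather than a receptor of killing, was the lone gene of the pathway lists that passed for Y-E vs. Y-A. It fell from 138 ± 17.4 CPM in the Y-A group to 66.6 ± 6.33 CPM in the Y-E group (log2 fold change −1.05, SE 0.14, adjusted p = 0.00454) and was at 108 ± 28.0 CPM in the Y-P group (0.70 for Y-P vs. Y-E, SE 0.14, adjusted p = 0.00364).

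By count, 4 of the 82 tested genes of the written lists were higher and 2 lower for Y-P vs. Y-A, where 2.22% and 3.61% of all genes were. For Y-P vs. Y-E 8 of the 82 were higher and 12 lower, where 5.77% and 8.68% of all genes were (6 and 13 without Y-E replicate 6). Under the block these counts were 10 and 5, and 11 and 15. The share of all genes that passed in either direction rose with the block too. It went from 5.83% to 8.84% for Y-P vs. Y-A and from 14.4% to 18% for Y-P vs. Y-E. None passed for Y-E vs. Y-A with edgeR, with the block or without Y-E replicate 6. Of the 133 genes annotated to the pathway, 4 were higher and 1 lower for Y-P vs. Y-A (9 and 5 with the block), and 8 were higher and 20 lower for Y-P vs. Y-E (13 and 21 with the block). The median log2 fold change was −0.01 for the written lists and 0.07 for the annotated genes for Y-P vs. Y-E, beside 0.04 for all genes.

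**Figure D5:**
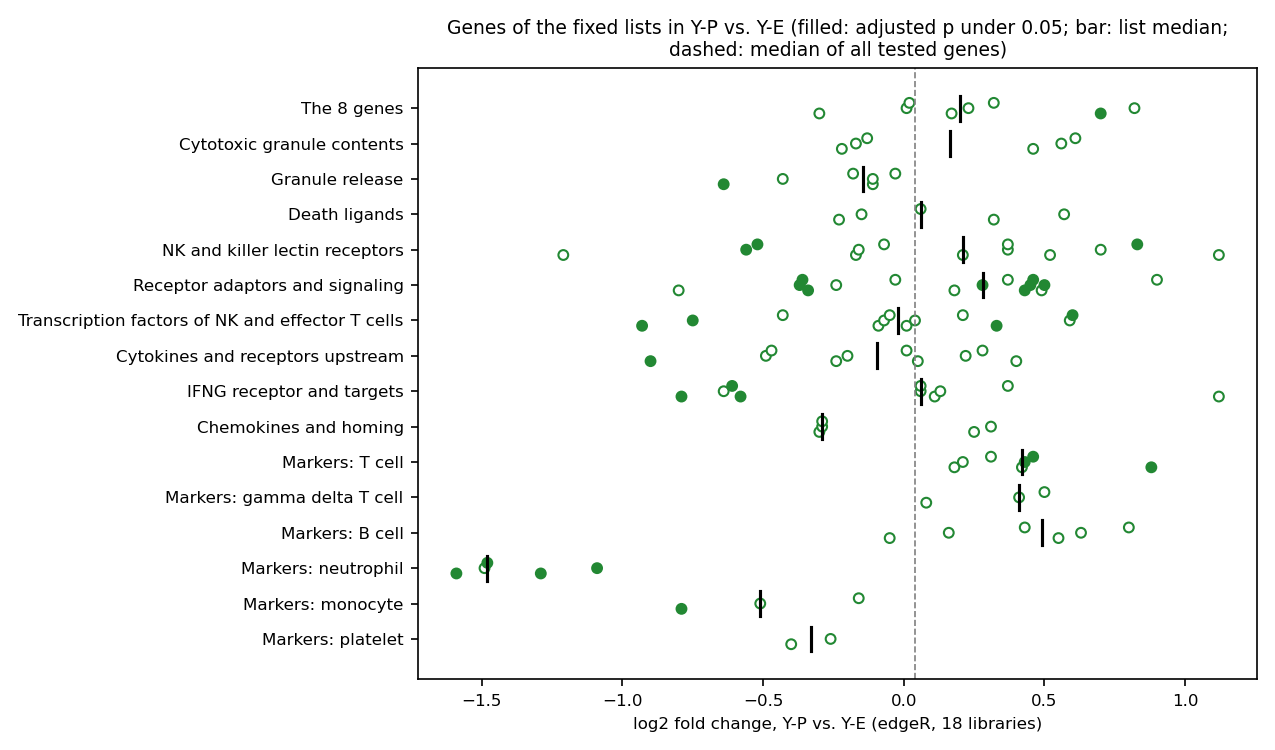
Each point is the log2 fold change of a gene for Y-P vs. Y-E (horizontal axis; edgeR, 18 libraries), grouped by list (rows); filled points passed at an adjusted p under 0.05, bars are list medians and the dashed line is the median of all tested genes (0.04). The 8 genes have a median of 0.20 with *KLRK1* filled, the T cell markers one of 0.42 and the neutrophil markers one of −1.48.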

How the data were processed

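The 8 genes and the lists were chosen with earlier results of these data known. The labels credit the processing to cutadapt 1.9, HISAT2 2.2.1 and StringTie 2.1.6, and the methods name ballgown for FPKM. From these the authors deposited FPKM (fragments per length of exon and per mapped reads) and raw counts for each gene and library. The tool that produced the counts, and whether it used strand, is not given in the sources used here. Coordinates are those of the deposited table, whose *Bos grunniens* build the methods name only by a version number.

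Counts were tested in R 4.3.3 with edgeR 4.0.16: filterByExpr, TMM, a quasi-likelihood fit with stage alone over 18 libraries, two-sided tests and Benjamini-Hochberg adjustment over all 14508 tested genes. A gene passed at an adjusted p under 0.05 and was called if its log2 fold change was also 1 or more in either direction. CPM was computed from the counts. Correlations used log2 CPM with a prior count of 1. The code was tested on simulated data. Tables were made with Python 3.11.15, pandas 2.3.3 and numpy 2.4.6, and figures with matplotlib 3.10.9.

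Alternatives were DESeq2 1.42.0, library size alone, no low-count filter, only the compared libraries, limma 3.58.1 on log2(FPKM + 1) and log2(FPKM + 0.1), each library left out and the replicate number as a block. The FPKM used with limma were not scaled by TMM. The block was taken as the cow, since the methods describe 6 tracked cows. Same-numbered libraries correlated in their deviations from the stage means at −0.0472 to 0.472, over 0.1 in 14 of 18 pairs. If the libraries were not separate animals within a stage, p-values would measure technical spread.

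All 8 genes were named in every comparison. From the lists, up to 4 higher and 4 lower genes with the smallest adjusted p were named per comparison, and the 8 genes of highest mean correlation. *STX11*, *SLAMF6*, *ITGAL*, *SYK*, *LCP2*, *VAV1*, *IFNGR1*, *IRF1*, *CD3G*, *GZMM*, *CST7*, *GZMK*, *SRGN*, *LAMP1*, *CTSC*, *LTB*, *CXCR3*, *LYST*, *CD5*, *CD68*, *CSF1R*, *NCR3*, *KLRG1*, *KLRF1*, *KLRF2*, *STAT4*, *ETS1*, *NFIL3*, *PRKCQ*, *SH2D1B*, *IL18RAP*, *IL2RA*, *IDO1* and the unnamed granzyme genes were chosen after their values were seen.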

Additional observations from a re-analysis of the deposited data

Results flagged for a closer look

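Single libraries stood apart from the other 5 of their stage for 5 of the genes described. Over 42 groups of 6 libraries that were searched by Dixon's criterion, chance alone marks about 1 in 20. *GZMA* was at 36.0 CPM in Y-E replicate 1, where the next library held 18 CPM. *IFNG* was at 1.92 CPM in Y-P replicate 3, where the next held 0.921 CPM. Among the unnamed genes with the enzyme number of granzyme B, ENSBGRG00000005275 was at 43.2 CPM in Y-A replicate 4 (next 20.7 CPM), ENSBGRG00000005455 at 190 CPM in Y-A replicate 5 (next 113 CPM) and ENSBGRG00000005616 at 17.4 CPM in Y-P replicate 2 (next 6.89 CPM).

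The share of counts from hemoglobin genes stood apart in Y-E replicate 6, at 8.36% against 0.713% in the next Y-E library, and in Y-P replicate 6, at 0.376% against 0.117%.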

How the results depend on the processing

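*KLRK1* passed for Y-P vs. Y-E with edgeR, DESeq2, library size alone and limma, and in 17 of 18 fits that left out 1 library. It did not pass without Y-P replicate 4 or with the block without Y-E replicate 6, where 0 of the 8 genes passed. For Y-P vs. Y-A limma passed 2 of the 8 on log2(FPKM + 1) and 1 on log2(FPKM + 0.1). Among all 18 libraries the block did not change which of the 8 genes passed. Without Y-E replicate 6 the Y-E vs. Y-A values of *PRF1* and *NKG7* reversed to 0.04, and that of *PRF1* to 0.06 with the block as well. For Y-P vs. Y-E *TBX21* reversed to −0.11, *EOMES* to −0.07 and, with the block, −0.02. On both limma scales the Y-P vs. Y-A values of *GZMA* (0.00) and *TBX21* (0.02) reversed. All these lay within their errors, and the cause was not tested.

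Among the 8 genes, leaving out 1 library gave log2 fold changes that crossed or reached 0: for Y-E vs. Y-A −0.23 to 0.04 for *PRF1*, −0.22 to 0.04 for *NKG7*, −0.28 to 0.30 for *NCR1* and −0.01 to 0.63 for *IFNG*, for Y-P vs. Y-A 0.00 to 0.22 for *PRF1*, −0.09 to 0.16 for *NKG7* and −0.53 to 0.00 for *NCR1*, and for Y-P vs. Y-E 0.00 to 0.28 for *NKG7*, −0.60 to 0.04 for *NCR1*, −0.11 to 0.19 for *TBX21* and −0.10 to 0.24 for *EOMES*.

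The number of called genes for Y-E vs. Y-A was 2, and 18 without Y-E replicate 6, 11 with the block, 34 with both changes, 9 with DESeq2 and 2 to 18 when 1 library was left out. For Y-P vs. Y-A it was 208, and 128 and 343 with limma at pseudocounts of 1 and 0.1, and 110 to 229 when 1 library was left out, lowest without Y-P replicate 2 (110), 4 (134) or 5 (136). For Y-P vs. Y-E it was 387, and 143 with limma on log2(FPKM + 1). The comparison of FPKM with CPM per exon length was not run, as no exon length was used here. At 30247267 counts or more per library, *IFNG*, with 6 to 85 counts, was the shallowest of the 8 genes.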

Other observations

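Of further receptor genes of the lists, *NCR3*, which encodes NKp30, lay at 38.4 ± 16.1 CPM in the Y-A group, 36.2 ± 16.2 CPM in the Y-E group and 46.7 ± 30.3 CPM in the Y-P group (SD, n = 6). The inhibitory receptor gene *KLRG1* was at 2.19 ± 1.02, 1.81 ± 0.661 and 2.93 ± 1.24 CPM. *KLRF1* (1.23 ± 0.999, 0.679 ± 0.552 and 1.49 ± 1.0 CPM) and *KLRF2* (0.382 ± 0.714, 1.11 ± 1.88 and 0.482 ± 0.983 CPM) had SDs near or above their means. None of these 4 passed the edgeR test in any of the 3 comparisons, the smallest adjusted p being 0.202 for *KLRG1* for Y-P vs. Y-E.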
